A study of Rattus norvegicus with 8 samples.

Results

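The NMDA receptor subunit genes Grin1, Grin2a, Grin2b, Grin2c, Grin2d and Grin3a were examined in hippocampal RNAseq data from adrenalectomized (ADX) rats, chosen by their gene symbol. They are 6 of the 13272 gene symbols in the table, and have 8 of its 16266 transcript rows. Grin1 had 3 transcripts and each of the other 5 genes had 1. RNA was measured in whole hippocampi of 8 male rats whose adrenal glands, the source of corticosterone, had been removed. The vehicle group (n = 4) received 0.45% saline through a jugular cannula for 30 min from zeitgeber time (ZT) 2, in the early light phase. The CORT group (n = 4) received corticosterone-2-hydroxypropyl-β-cyclodextrin at 0.75 mg/mL over the same time, and the hippocampi of both groups were collected 2 h after the infusion began. Both groups had recovered from surgery on corticosterone in their drinking water, which was replaced by saline before the experiment. The labels describe Sprague-Dawley rats aged 3 to 4 months and call the vehicle samples untreated in their titles, whereas the methods of the study name Lister hooded rats of a younger age.

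NMDA receptors are glutamate-gated channels that let calcium into neurons and are needed for the induction of most forms of hippocampal long-term potentiation. Each receptor holds the obligatory GluN1 subunit (Grin1), which binds glycine or D-serine, together with GluN2 subunits (Grin2a to Grin2d), which bind glutamate, or with GluN3 subunits (Grin3a, Grin3b), which bind glycine. GluN2B prevails in the young forebrain and GluN2A joins it as synapses mature, and the balance between them sets how long the channel stays open. The comparison asked how a single corticosterone pulse in rats without their own hormone altered the level of these transcripts.

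Levels are given as FPKM, a fragment count scaled for transcript length and sequencing depth, so that levels can be set side by side between genes as far as each transcript model covers its mRNA. Each of the 5 genes other than Grin1 is given by 1 Ensembl transcript, and how much of each mRNA these models cover was not tested, which bears on the order of the levels and on the shares between genes. Each FPKM is the authors' value for a whole group, so there is no value for a single rat. The authors' own test columns were not used, and the group values alone give no SD, test or replicate check, so each ratio below is a description of 2 group values. The depth of each library is unknown from these values. Group medians over the whole table were 9.22 FPKM in the vehicle and 9.38 FPKM in the CORT group. Where a pair of levels is given without a group, the vehicle value comes first. Sgk1 and Fkbp5 are classical corticosteroid target genes, and their most abundant transcripts were at 28.5 and 18.6 FPKM in the vehicle and 70.4 and 33.8 FPKM in the CORT group.

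All 8 NMDA receptor transcripts were higher in the CORT value than in the vehicle value, by amounts that differed widely between subunits, except that 1 transcript of Grin1 was at -0.02 when ratios were centred on the median of all transcripts. The log2 ratio of CORT over vehicle ran from 0.01 to 0.77, with a median of 0.17 over the 8 transcripts and of 0.30 when Grin1 was represented by its most abundant transcript. Over the 15434 transcripts with a mean of at least 1 FPKM in both group values together, which include all 8 of the receptor, the median was 0.02, and 55.6% were higher with CORT. A difference of at least 1.5-fold was seen for 1 of the 8, Grin2b, against 6.98% of all those transcripts, of which 3.32% were higher and 3.66% lower with CORT. At least 25% higher were 3 of the 8 (Grin2b, Grin3a and Grin2a), against 8.40% of all transcripts. The 5 others, which are the 3 of Grin1 with Grin2c and Grin2d, differed by less than 25%.

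**Figure D1:**
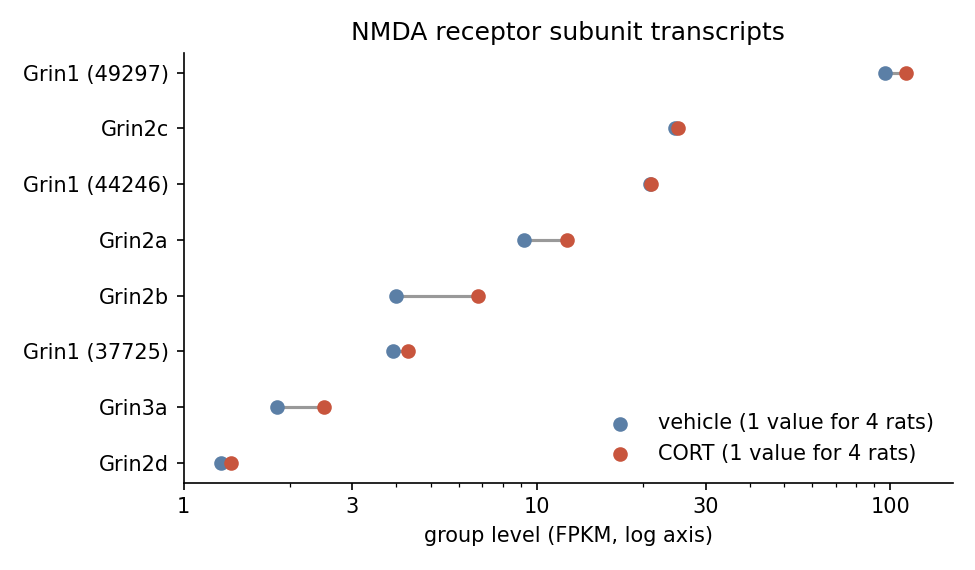
Level of each NMDA receptor transcript in FPKM (log axis) in the vehicle (blue) and CORT (red) groups, with 1 value for the 4 rats of each group and no error bars because values of single rats were not used; the number beside Grin1 is the end of its transcript identifier. The gap is widest for Grin2b, from 3.98 to 6.80 FPKM, and the points of Grin2c nearly coincide.

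Grin1 was by far the most abundant subunit gene. Its 3 transcripts share 1 locus on chromosome 3 of rn6, between 2506425 and 2534663. ENSRNOT00000049297.3 was at 96.4 FPKM in the vehicle and 111 FPKM in the CORT group, a log2 ratio of 0.20. ENSRNOT00000044246.4 was at 21.0 FPKM in both groups, a log2 ratio of 0.01. The least abundant, ENSRNOT00000037725.5, was at 3.92 and 4.32 FPKM, a log2 ratio of 0.14. The first of them made up 79.5% of the summed Grin1 level with vehicle and 81.4% with CORT, and the second 17.3% and 15.4%, so the order of the transcripts was the same in both groups. Summed over its transcripts, Grin1 was at 121 FPKM in the vehicle and 136 FPKM in the CORT group, a log2 ratio of 0.17. The transcripts of Grin1 overlap, and reads that fit several of them were divided by the authors' software, so these separate levels are less certain than their sum.

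Grin2b, which encodes GluN2B, had the largest ratio of the family. It lies on chromosome 4 between 169560386 and 169999873 with levels of 3.98 FPKM in the vehicle and 6.80 FPKM in the CORT group. The level was thus 1.71-fold higher with CORT, a log2 ratio of 0.77, which 2.08% of all transcripts exceeded. Ratios spread more widely at low levels, so the range of 3 to 10 FPKM, in which Grin2b lies, was also read on its own. Of the 4616 transcripts in that range, 1.54% had a higher log2 ratio than Grin2b, and 3.14% were at least 1.5-fold higher with CORT.

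Grin2a, which encodes GluN2A, had the third largest ratio. It lies on chromosome 10 between 5930297 and 6119990, and its level was 9.21 FPKM in the vehicle and 12.1 FPKM in the CORT group, a log2 ratio of 0.40 and 1.32-fold higher with CORT. Of all transcripts, 6.07% had a higher ratio. Its mean of 10.7 FPKM lies near the lower edge of the range of 10 to 30 FPKM, and of the 4438 transcripts in that range 2.68% had a higher log2 ratio, and 1.28% were at least 1.5-fold higher with CORT.

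Grin3a, which encodes GluN3A, a subunit of juvenile synapses that lowers the calcium permeability of the receptor, stood between Grin2b and Grin2a in its ratio. On chromosome 5, between 64928619 and 65073012, it was at 1.84 FPKM in the vehicle and 2.51 FPKM in the CORT group, a log2 ratio of 0.45. At its low level such a ratio was common. Of the 2999 transcripts between 1 and 3 FPKM, 13.2% had a higher log2 ratio than Grin3a, and 8.67% were at least 1.5-fold higher with CORT.

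Grin2c and Grin2d were nearly level between the groups. Grin2c, the GluN2C gene best known from cerebellar granule neurons and also found in astrocytes, is on chromosome 10 between 103798290 and 103816287. It was at 24.5 FPKM in the vehicle and 25.1 FPKM in the CORT group, a log2 ratio of 0.03. Grin2d, the GluN2D gene, which in the hippocampus is mainly a gene of interneurons, is on chromosome 1 between 101820460 and 101856881. It had the lowest level of the family, at 1.28 and 1.36 FPKM, a log2 ratio of 0.09. Of all transcripts, 47.2% had a higher ratio than Grin2c and 33.0% a higher ratio than Grin2d.

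**Figure D2:**
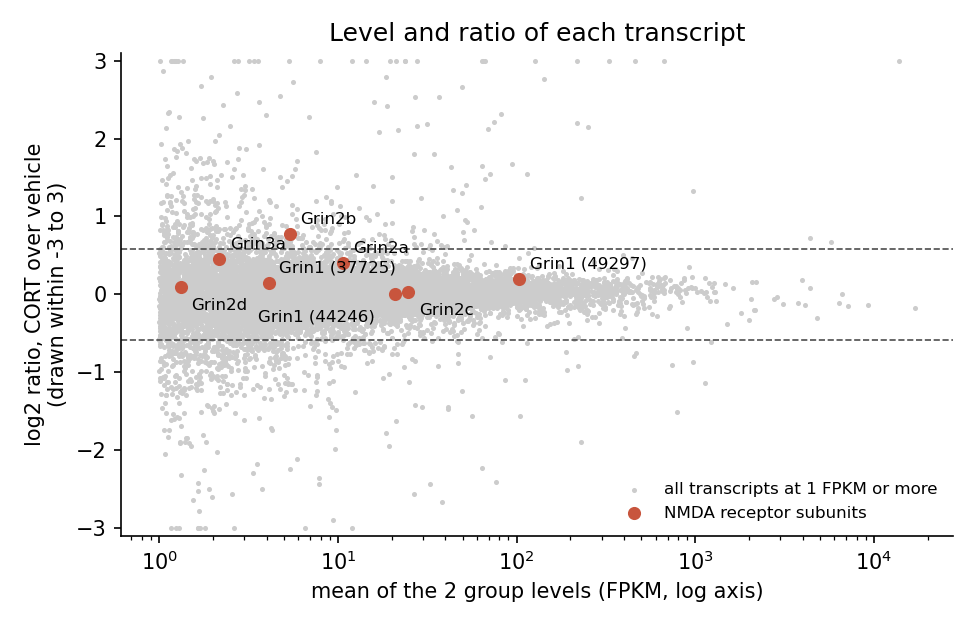
Log2 ratio of CORT over vehicle against the mean of both group values (FPKM, log axis) for the 15434 transcripts at 1 FPKM or more (grey) and the 8 NMDA receptor transcripts (red); dashed lines mark 1.5-fold, and 41 transcripts beyond 3 on the log2 scale are drawn at the edge. Grin2b lies above the upper line at 0.77, and the grey cloud narrows towards high levels.

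Promoter sequences of 4 of the 6 genes, Grin1, Grin2c, Grin2d and Grin3a, were found in RefSeq for the GRCr8 build, each from 250 bases before to 50 after the start site. The sequences are shown for the obligatory Grin1 and for Grin3a, which had the largest ratio of the 4, because corticosteroid receptors act through DNA elements near genes. On both strands they were searched for AGAACA, the core letters of the glucocorticoid response element, for the full palindromic element, which holds these letters and their reverse complement 3 bases apart, and for CACGTG, the E-box bound by clock factors. None of these letters occurred in the 4 windows. Of all 33469 promoters of that length, 20.7%, 0.0149% and 6.42% held them, and 4 windows are too few to set against such shares. The search says nothing of sites outside these windows. Grin2a and Grin2b had no entry and were not searched. The 250 bases before the start site of Grin1 (minus strand, chr3:28528755-28529004 of GRCr8) hold 19 CpG dinucleotides and those of Grin3a (minus strand, chr5:69001559-69001808 of GRCr8) hold 16, printed in capitals. In the full windows Grin1 had 25, Grin3a 17, and Grin2c and Grin2d 11 each, against a median of 7 in all promoters. The build differs from the rn6 of the values above.
Grin1: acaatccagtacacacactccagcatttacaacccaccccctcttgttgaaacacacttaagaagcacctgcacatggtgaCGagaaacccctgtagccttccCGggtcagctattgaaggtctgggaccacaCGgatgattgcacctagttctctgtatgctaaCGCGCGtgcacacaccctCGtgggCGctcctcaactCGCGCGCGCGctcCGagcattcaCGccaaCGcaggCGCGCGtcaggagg
Grin3a: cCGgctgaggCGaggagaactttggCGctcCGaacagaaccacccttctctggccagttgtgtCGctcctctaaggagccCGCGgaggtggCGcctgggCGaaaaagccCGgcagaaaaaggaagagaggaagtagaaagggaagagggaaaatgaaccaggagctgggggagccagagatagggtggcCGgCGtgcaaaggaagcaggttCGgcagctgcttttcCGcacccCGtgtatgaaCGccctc

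The order of levels, with Grin1 summed, was Grin1, Grin2c, Grin2a, Grin2b, Grin3a and Grin2d in both groups. Without values of single rats it cannot be said which neighbours in this order differ beyond their spread. The place of Grin2c above Grin2a and Grin2b rests on 1 Ensembl transcript model for each gene.

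The make-up of the GluN2 transcripts differed between the groups through Grin2a and Grin2b. The Grin2b to Grin2a ratio was 0.432 with vehicle and 0.561 with CORT, a difference of 0.38 on the log2 scale. Of the FPKM of Grin2a and Grin2b together, Grin2b held 30.2% with vehicle and 35.9% with CORT. The sum over the 4 Grin2 genes was 39.0 FPKM in the vehicle and 45.4 FPKM in the CORT group, a log2 ratio of 0.22. Grin2a and Grin2b accounted for 89.3% of that difference of 6.43 FPKM, in nearly equal parts of 2.92 and 2.82 FPKM. As a share of the sum, which depends on those transcript models, Grin2b went from 10.2% to 15.0% and Grin2a from 23.6% to 26.7%. Grin2c went from 62.9% to 55.3%, although its own level was nearly the same in both groups. Grin2d was at 3.27% with vehicle and 3.00% with CORT. Summed Grin1 was 3.11 times the sum of the Grin2 genes with vehicle and 3.00 times with CORT, so the obligatory subunit and the GluN2 subunits together kept nearly the same proportion.

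**Figure D3:**
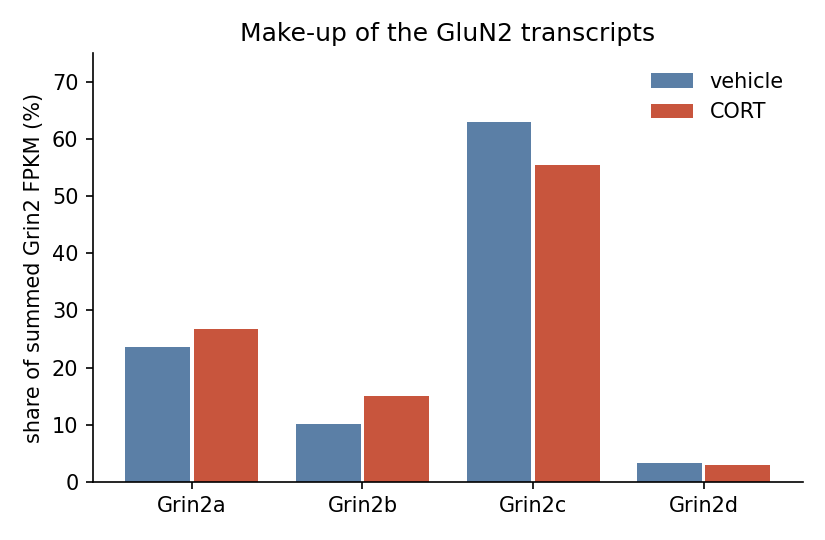
Share of each Grin2 gene in the summed FPKM of Grin2a, Grin2b, Grin2c and Grin2d (percent, axis from 0) in the vehicle (blue) and CORT (red) groups, 1 value per group without error bars. Grin2b is at 10.2% and 15.0% and Grin2c at 62.9% and 55.3%.

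The NMDA receptor genes were set beside other glutamate receptors, each gene by its most abundant transcript. At least 1.5-fold higher with CORT were 1.66% of the 12795 genes at 1 FPKM or more, and at least 1.5-fold lower 3.06%. Of the 4 AMPA receptor subunits, which carry fast excitatory currents, none passed 1.5-fold and the median log2 ratio was 0.08. Gria1, the most abundant of them, was at 99.2 and 105 FPKM. Of the 5 kainate receptor subunits, 1 was lower by that fold, with a median of 0.17 and Grik5 most abundant at 55.8 and 63.0 FPKM. The gene past the threshold, Grik1, was at 2.91 and 1.72 FPKM, a log2 ratio of -0.76, but its other transcripts went the other way and the sum of all 3 had a log2 ratio of 0.26. The 7 metabotropic glutamate receptors, which act through G proteins, had none past 1.5-fold and a median of 0.11, and Grm3 was most abundant at 16.6 and 16.9 FPKM. Among the most abundant transcripts of these 16 receptor genes the highest log2 ratio was 0.38, for Grik3, close to the 0.40 of Grin2a. None of them reached the values of Grin2b, Grin3a or Grin2a. The less abundant Grik1 transcripts had higher log2 ratios than Grin2b, 2.17 (0.358 and 1.61 FPKM) and 1.12 (0.579 and 1.26 FPKM). This is a comparison of group values without a test. The other genes named for the NMDA receptor were nearly level too. Grin3b, which encodes GluN3B, was at 1.31 and 1.41 FPKM, in a locus that also overlaps 13 other gene symbols. Grina, a glutamate receptor-associated membrane protein and not a channel subunit, was at 355 and 386 FPKM.

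Genes that supply, anchor, move or modify the receptor were read from lists in the same way. With the other glutamate receptors, 97 genes were listed, 93 had a transcript, and 1 was higher and 2 lower by at least 1.5-fold, which is 3.23% of them. Over all genes at 1 FPKM or more, 1.66% were higher and 3.06% lower by that fold. The median log2 ratio of the 93 was 0.10, and 70 of them were higher with CORT. The median was 0.02 over all transcripts and also with 1 transcript a gene. Of all transcripts, counted without picking 1 per gene, 55.6% were higher. The 14 genes that supply glutamate and the co-agonists glycine and D-serine had a median of -0.03. In this list Slc17a6, a vesicular glutamate transporter typical of thalamic neurons, was at 9.00 and 5.56 FPKM, a log2 ratio of -0.70, whereas Slc17a7, the transporter typical of cortical and hippocampal neurons, was the most abundant at 736 and 794 FPKM. The 15 anchoring and scaffold genes had the highest median of these lists, 0.19, with 12 higher and 3 lower and none past 1.5-fold. Dlg4, which encodes PSD-95, the scaffold that binds the tail of GluN2 subunits, was at 195 and 213 FPKM.

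Of the 8 genes of receptor transport, Lin7a, a partner of the motor complex that carries GluN2B, was at 1.23 and 2.21 FPKM, a log2 ratio of 0.84 that was 0.52 with a pseudocount of 1 FPKM, and the list had a median of 0.08. The most abundant of them, Lin7b, was at 84.8 and 91.7 FPKM. The 21 kinases and phosphatases had a median of 0.10 and none past 1.5-fold. They include Camk2a, the kinase that binds GluN2B during potentiation, at 593 and 667 FPKM. The 7 surface and matrix partners had a median of 0.09, with Nptx1 most abundant at 142 and 152 FPKM, and the 10 transcription factors known at NMDA receptor genes a median of -0.0029, with Crtc1, a CREB co-activator, most abundant at 24.1 and 29.4 FPKM. No gene of the last 3 lists was past 1.5-fold.

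**Figure D4:**
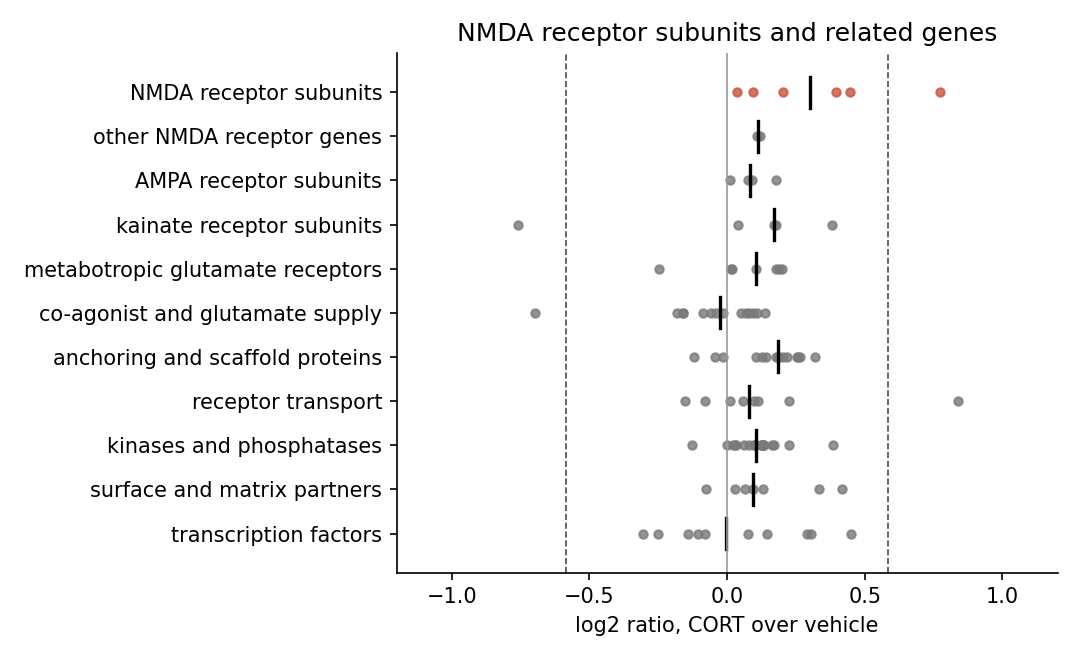
Log2 ratio of CORT over vehicle of each NMDA receptor subunit gene (red) and of the genes of 10 related lists (grey), 1 point a gene by its most abundant transcript, with the median of each list as a black bar and 1.5-fold as dashed lines. Grin2b at 0.77 and Lin7a at 0.84 lie beyond the upper line, and Grik1 and Slc17a6 beyond the lower.

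Marker genes of several cell types also differed between the group values. Of 8 hippocampal pyramidal and granule neuron markers, 7 had a transcript, 5 higher and 2 lower with CORT, and their median log2 ratio was 0.06. Nrgn, the most abundant, was at 1137 and 1254 FPKM. Zbtb20, at 1.55 and 2.72 FPKM, was the 1 past 1.5-fold, against 1.66% of all genes higher by that fold. Prox1, at 10.9 and 8.96 FPKM, was the lowest in ratio. No marker with a transcript was at 0 in either group. In bulk tissue, fewer cells of a type and less RNA per cell cannot be told apart. All 5 thalamic and habenular markers at 1 FPKM or more were at least 1.5-fold lower with CORT, against 3.06% of all genes. With a mean under 1 FPKM, Chrnb4 was lower too, at 1.35 and 0.523 FPKM, but Rora was higher, at 0.559 and 0.914 FPKM. The sum of the 7 of 8 with a transcript was 27.9 FPKM in the vehicle and 11.7 FPKM in the CORT group. The 7 interneuron markers, by contrast, were all higher with CORT, with a median log2 ratio of 0.33 and a sum of 407 FPKM in the vehicle and 506 FPKM in the CORT group. The 7 of 8 general neuronal markers with a transcript had a median of 0.14 and a sum of 2468 and 2581 FPKM. The log2 ratios of Grin2b (0.77), Grin3a (0.45), Grin2a (0.40) and Grin2d (0.09) come from the same groups as these markers. The part of these markers in the receptor values was not tested. The cerebellar markers Gabra6 and Cbln3 have no row in the table. The 4 others, Cbln1, Zic1, Zic2 and Pax6, were all lower with CORT, with a median of -0.69. Of these, 2 were lower by at least 1.5-fold, against 3.06% of all genes.

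**Figure D5:**
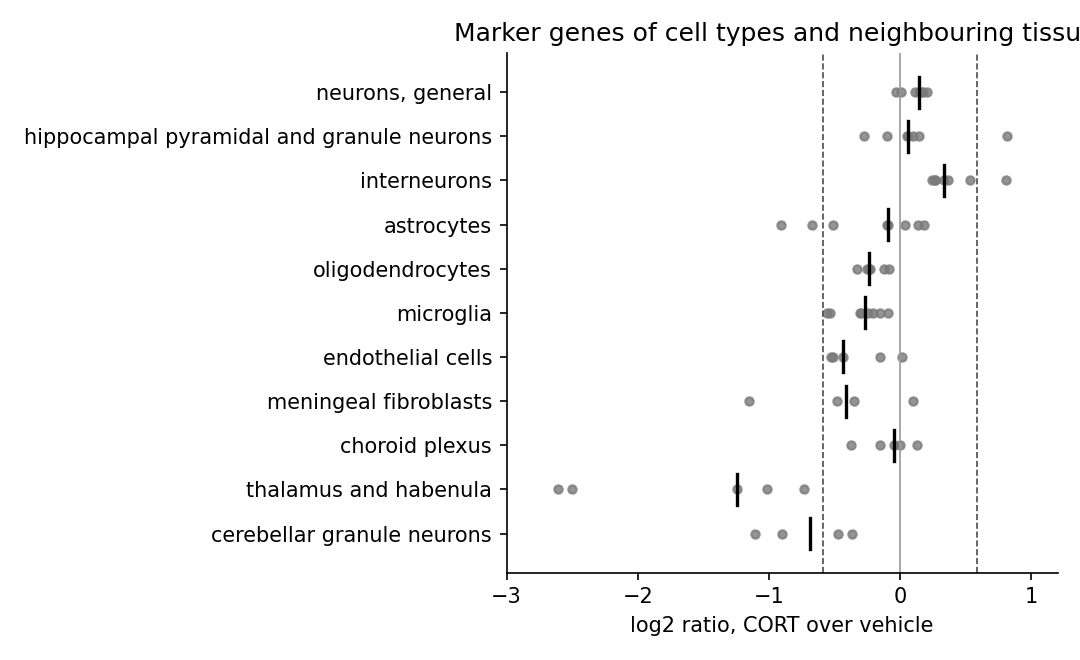
Log2 ratio of CORT over vehicle of marker genes at 1 FPKM or more for 11 cell types or neighbouring tissues, 1 point a gene by its most abundant transcript, with medians as black bars and 1.5-fold as dashed lines. All interneuron markers lie above 0, and the thalamic and habenular markers drawn all lie below the lower line. Chrnb4 and Rora, with a mean under 1 FPKM, are not drawn.

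Among the subunit genes examined, Grin2b also has the longest locus, spanning 439 kb, followed by Grin2a with 190 kb and Grin3a with 144 kb. These are the 3 genes with the highest ratios. The loci of Grin2d, Grin1 and Grin2c span 36.4, 28.2 and 18.0 kb. Grin3b, which was read only as a related gene, cannot be placed in this order. Its listed locus spans 253 kb, and its log2 ratio was 0.11. That locus overlaps 13 other gene symbols, whereas the loci of the subunit genes examined overlap none. Its span may therefore not be that of Grin3b alone. For the other transcripts below, how many genes share a listed locus was not checked. Across all transcripts the median ratio was highest for the longest loci, whereas the share past 1.5-fold upwards did not follow the span step by step. The 999 transcripts of loci of 200 kb or more had a median log2 ratio of 0.09, with 4.60% at least 1.5-fold higher and 2.50% lower with CORT. For the 3921 of loci between 50 and 200 kb, the range of Grin2a and Grin3a, the median was 0.04, with 3.57% higher and 2.78% lower. Among the 6667 of loci between 10 and 50 kb the median was 0.01, with 2.67% higher and 3.66% lower. For the 3847 of loci under 10 kb it was also 0.01, with 3.87% higher and 4.86% lower. The part of the span in the values of Grin2b and Grin2a was not tested.

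The genes closest to Grin2b in level and ratio, over the 2 group values, were Tiparp, LOC102551819 and Eva1a, at distances of 0.10, 0.12 and 0.13 on the plane of log2 mean FPKM and log2 ratio. Tiparp was at 3.88 and 6.34 FPKM. Closest to Grin2a were the amino acid transporter gene Slc7a8 and the calcium channel genes Cacna1i and Cacna1e, at distances of 0.01, 0.02 and 0.03. Slc7a8 was at 9.28 and 12.3 FPKM. With 2 values a gene, many genes can lie this close, and the likeness is a description only.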

How the data were processed

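RNA was sequenced from the hippocampi of 8 ADX rats, 4 per group. Per the labels, the submitters' processing notes name CASAVA 1.8.2, TopHat2 2.0.10, Cuffdiff 2.2.0 and the rn6 build. The authors' deposited table gives 1 FPKM per Ensembl transcript and group, normalized geometrically between libraries, for transcripts with at least 10 alignments. It also holds the authors' fold change, test statistic, p-value and q-value, which were not used. Depth per library is not given by these values, so no counting precision is stated.

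The log2 ratio of CORT over vehicle was computed without a pseudocount. Transcripts with a mean of both group values of at least 1 FPKM were counted, and a difference was called at 1.5-fold. Lists used the most abundant transcript of each symbol. The members, lists and tests were chosen with earlier results of these data known. Genes named were all members, genes of the related lists past 1.5-fold, the most abundant gene of each of those lists and the 3 nearest to Grin2b and to Grin2a. This rule did not cover the cell type markers, and several of them past 1.5-fold are not named. Sgk1, Fkbp5, Grik3, Nrgn, Zbtb20, Prox1, Gfap, Aldh1l1 and the neighbouring tissue markers were named after their values were seen. The counting of calls was tested on simulated data. Alternatives were pseudocounts of 1 and 0.1 FPKM, centring on the median, thresholds of 25% and 2-fold, no filter, and summed transcripts. Python 3.11.15, numpy 2.4.6, pandas 2.3.3 and matplotlib 3.10.9 were used.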

Additional observations from a re-analysis of the deposited data

How the results depend on the processing

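The direction of all 8 NMDA receptor transcripts was the same with pseudocounts of 1 and 0.1 FPKM. When ratios were centred on the median of all transcripts, ENSRNOT00000044246.4 of Grin1 went from 0.01 to -0.02 and the 7 others stayed above 0. A pseudocount of 1 FPKM moved 2 of them by 0.1 or more on the log2 scale, Grin2b to 0.65 and Grin3a to 0.31, because it shrinks the ratio of low values. The median ratio of the receptor went from 0.17 to 0.28 when the transcripts of a gene were summed, since the 3 values of Grin1 then became 1. The number at or past the threshold was 3 at a difference of 25% and 0 at 2-fold in place of 1 at 1.5-fold, and it was 1 without a filter, with a pseudocount of 1 FPKM and after centring. Among the 93 related genes, 6 were higher by 25% in place of 1 at 1.5-fold. The share of 8.40% at 25% counts all transcripts and not 1 per gene, so it is not a like background for them. With transcripts summed 1 was lower in place of 2, since Grik1 reversed from -0.76 to 0.26. With a pseudocount of 1 FPKM, chosen after seeing the data, Lin7a was at 0.52 and Grik1 at -0.52, both then under 1.5-fold. The Grin2b to Grin2a difference of 0.38 was 0.28 with that pseudocount. The shares of the Grin2 genes were the same with transcripts summed, because each has 1 transcript. Leaving out each rat in turn was not run, because values of single rats were not used. No paired analysis was possible because each column holds the value of a whole group. Depth is unknown from these values, so how low a level of Grin2d or Grin3a could still be detected cannot be stated.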

Other observations

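The markers of glial and vascular cells mostly leaned the other way from the NMDA receptor genes. All 6 oligodendrocyte markers and all 8 microglial markers were lower with CORT, with median log2 ratios of -0.23 and -0.27, and none of either was past 1.5-fold. Their summed levels were 5097 and 4234 FPKM for oligodendrocytes and 278 and 233 FPKM for microglia, with vehicle and CORT. Of the 8 astrocyte markers, 3 were higher and 5 lower, with a median of -0.09. The 2 past 1.5-fold were lower, against 3.06% of all genes lower by that fold. These were Gfap, at 970 and 517 FPKM, and Aldh1l1, at 6.39 and 4.02 FPKM. Grin2c, which astrocytes can also express, was nearly level. Of the endothelial markers 5 of 6 had a transcript, with a median of -0.44, and of the meningeal markers 4 of 6, with a median of -0.41. The 5 choroid plexus markers with a transcript had a median of -0.05, and their summed level was 6733 FPKM with vehicle and 6720 FPKM with CORT. These are group values without a test, and their part in the receptor values was not tested.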
